A study of Mus musculus with 70 samples.

Results

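The melanocyte lineage and pigment genes described here are Tyr, Tyrp1, Dct, Pmel, Mlana, Mitf, Slc45a2, Gpnmb, Sox10 and Oca2, which is 10 of the 55487 gene lines in each of the 4 count tables. They were chosen by symbol, with earlier results of these data known, and were read first in CD45- cells and then in CD45+ cells of the same tumor model. B16F10, an established pigmented melanoma line of C57BL/6 origin, was grown beneath the skin of both flanks of male and female C57BL/6 mice bought at 6 to 8 weeks of age. A unilateral sham ablation gave control tumors, and a unilateral partial ablation with histotripsy, which breaks tissue mechanically by focused ultrasound without heat, gave histotripsy-treated tumors and, on the untreated opposite flank, histotripsy-abscopal tumors. Tumors were taken on day 3 or day 7 and sorted by flow cytometry on CD45, the surface protein of leukocytes.

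There were 36 CD45- libraries, with 4 control, 7 histotripsy-treated and 7 histotripsy-abscopal tumors on day 3 and 11, 3 and 4 on day 7. The 34 CD45+ libraries were 4, 6 and 7 on day 3 and 10, 3 and 4 on day 7, in the same order of groups. The CD45- gate keeps every cell that lacks CD45, so melanoma cells were not separated from stroma. Groups were not randomized, and the sex of the mouse, the batch and the mouse itself are not given per library. Treated and abscopal libraries may therefore share a mouse, whether each library came from its own mouse is not known, and p-values measure the spread between libraries. For CD45- RNA of day 3, the paper's figure legends give fewer mice per group than the 7 treated and 7 abscopal libraries. Fewer melanoma cells and less RNA per melanoma cell cannot be told apart in bulk libraries.

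Melanocytes make pigment in melanosomes, organelles related to lysosomes. Tyrosinase, encoded by Tyr, starts melanin synthesis by oxidising tyrosine, and Tyrp1 and Dct encode related enzymes that act on later intermediates. Pmel forms the amyloid fibrils on which melanin is laid down, Mlana helps Pmel to mature, and Slc45a2 and Oca2 are membrane transporters that set the pH inside the melanosome. Sox10 is a neural crest transcription factor that activates Mitf, and Mitf activates most of the other members. Gpnmb encodes a glycoprotein related to Pmel that is abundant in melanosomes and also in macrophages, and Mitf too is expressed in macrophages.

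Proteins of the Mitf family bind the DNA words CATGTG and CACGTG. The promoters below are printed because they show where the first of these words stands in the genes of all 3 enzymes of melanin synthesis and of Oca2, whose RNA levels are given further on. Each window runs from 250 bases before to 50 bases after the annotated start, in RefSeq on GRCm38.p6, and is written 5′ to 3′ on the gene's own strand with CATGTG, or its reverse complement CACATG, in capitals.
Tyr, chr7:87493463-87493762, minus strand: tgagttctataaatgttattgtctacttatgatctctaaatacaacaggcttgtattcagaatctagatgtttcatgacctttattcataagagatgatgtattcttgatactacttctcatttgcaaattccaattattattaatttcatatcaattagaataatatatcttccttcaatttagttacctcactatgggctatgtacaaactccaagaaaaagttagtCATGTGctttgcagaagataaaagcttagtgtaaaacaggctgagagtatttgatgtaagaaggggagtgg
Tyrp1, chr4:80833963-80834262, plus strand: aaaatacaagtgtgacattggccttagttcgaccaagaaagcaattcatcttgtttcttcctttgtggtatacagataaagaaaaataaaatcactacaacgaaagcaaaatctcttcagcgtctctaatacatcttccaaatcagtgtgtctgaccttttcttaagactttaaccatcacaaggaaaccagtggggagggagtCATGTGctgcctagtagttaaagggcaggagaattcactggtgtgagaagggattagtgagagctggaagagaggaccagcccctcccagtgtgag
Dct, chr14:118052197-118052496, minus strand: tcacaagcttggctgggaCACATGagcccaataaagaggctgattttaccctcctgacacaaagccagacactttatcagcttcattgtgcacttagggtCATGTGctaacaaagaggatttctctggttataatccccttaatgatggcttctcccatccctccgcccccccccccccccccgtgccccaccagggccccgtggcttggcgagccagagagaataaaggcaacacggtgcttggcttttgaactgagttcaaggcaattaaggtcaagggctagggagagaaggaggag
Oca2, chr7:56239509-56239808, plus strand: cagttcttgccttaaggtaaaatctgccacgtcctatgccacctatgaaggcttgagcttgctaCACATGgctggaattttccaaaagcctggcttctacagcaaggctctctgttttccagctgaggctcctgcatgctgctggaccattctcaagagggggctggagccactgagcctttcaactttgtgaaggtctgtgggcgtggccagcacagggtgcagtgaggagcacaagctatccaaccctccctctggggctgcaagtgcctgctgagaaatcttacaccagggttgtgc
The word begins at position -21 from the start in Tyr and at -46 in Tyrp1. Dct holds it at -150 and, as the reverse complement, at -232, and Oca2 holds the reverse complement at -186. Both strands were searched, and CATGTG is found in 4650 of all 32851 promoter windows (14.2%). CACGTG, which is its own reverse complement and does not overlap with the other word, is in 2349 of them (7.15%). The Gpnmb window and the 3 Mitf windows hold neither word, which says only that these letters are absent from those 300 bases. A match is a description of the sequence and no evidence of binding in these tumors. Promoter windows were found by symbol for 6 of the 10 members, and Pmel, Mlana, Slc45a2 and Sox10 are named only.

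Before the members are read, the fractions and the libraries that stood apart need to be stated. Ptprc, the gene of CD45, had 0 to 3 counts in every CD45- library, with 0 in 14 of 18 on day 3 and 17 of 18 on day 7, and 650.6 to 1252 CPM (counts scaled to a library total of 1000000) in CD45+ libraries. The macrophage marker Adgre1 had at most 1 count in any CD45- library. Summed over 8 macrophage markers, CD45- libraries of day 3 had medians of 3.80 CPM in control, 8.01 CPM in treated and 7.41 CPM in abscopal tumors. Depth ranged from 1080212 to 3820705 counts per library in CD45- cells and from 887798 to 2824959 in CD45+ cells. Among CD45- libraries on day 3, the summed level of 6 fibroblast markers was 17.1 to 1047 CPM across control tumors with a median of 188, 56.3 to 13338 CPM across treated tumors with a median of 2057, and 141 to 814 CPM across abscopal tumors with a median of 524. On day 7 the ranges were 16.9 to 694, 85.3 to 4029 and 70.1 to 2478 CPM in that order. Krt14, a keratinocyte marker, had at most 1 count in any CD45- library. Among CD45+ libraries, histotripsy-abscopal replicates 4 and 1 on day 3 held far more of the members' RNA than any other library and are treated separately where CD45+ cells are described.

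In CD45- cells the 10 members together made up 2.80% to 4.34% of all counts (median 3.82%), which matches the label of a pigmented melanoma. The order of their median levels was the same on both days. QuantSeq counts 1 end of each transcript, so counts do not scale with transcript length and levels of different genes can be set side by side, apart from differences in priming and in the annotation of the 3′ end.

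Dct RNA stood far above that of the other pigment enzymes. On day 3 its level ranged from 15361 to 28440 CPM over 18 libraries (median 23286), against 1712 to 2516 CPM for Tyrp1 (median 2130) and 164 to 317 CPM for Tyr (median 259). Dct alone held between 54.8% and 67.0% of the members' counts on day 3 (median 61.1%) and between 55.3% and 67.3% on day 7 (median 60.9%). Tyr, the enzyme that starts the pathway, was therefore the scarcest of the 3 enzymes in every CD45- library.

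Gpnmb was second, with 3689 to 7030 CPM on day 3 (median 5715) and 3657 to 6542 on day 7 (median 4871). The fibril protein gene Pmel followed with medians of 3096 and 3428 CPM, above Tyrp1 with 2130 and 2282. The regulator Mitf had medians of 1385 and 1508 CPM and Mlana 1357 and 1431. These neighbours overlapped in their ranges, except that the lowest Tyrp1 level was above the highest Mitf level on day 3 only.

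At the lower end stood Slc45a2 (medians 466 and 523 CPM on days 3 and 7), the upstream regulator Sox10 (371 and 380), Tyr (259 and 282) and Oca2 (38.3 and 42.3). Over all 18 libraries of a day, neighbours with no overlap were Dct above Gpnmb, Mlana above Slc45a2 and Tyr above Oca2. The plot of levels by group shows the members by library, and Mitf and Mlana, which differ little, change places between groups.

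**Figure D1:**
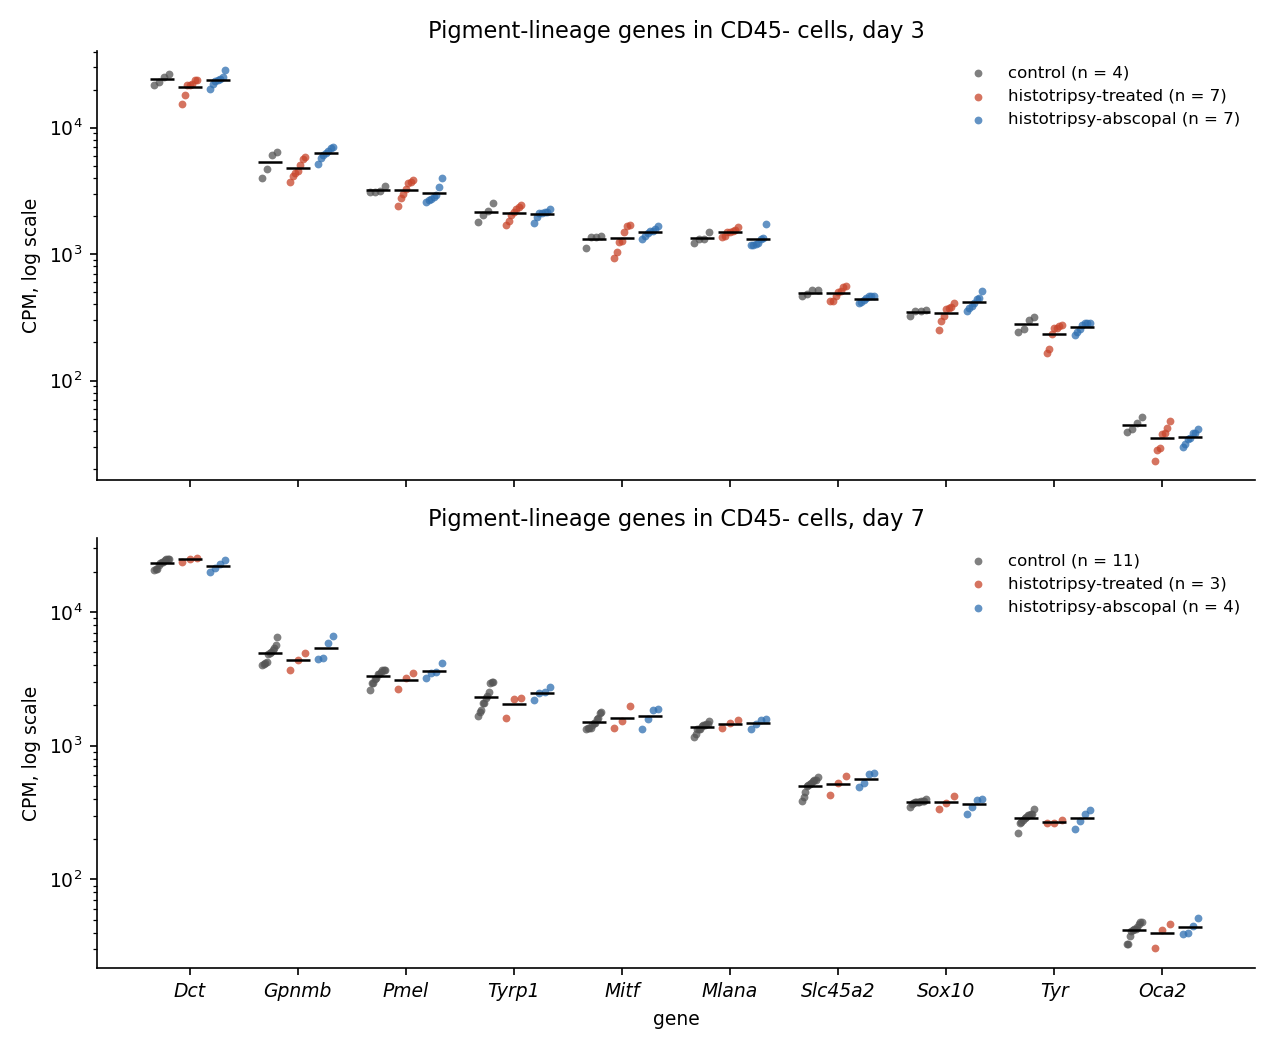
Level of the 10 members in each CD45- library in CPM on a log axis, on day 3 and day 7, with 1 point per library coloured by group and a black bar at the group mean. Dct lies between 15361 and 28440 CPM and Oca2 between 23.2 and 51.6 CPM, and the 3 groups overlap for nearly every gene.

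Levels varied little between tumors of a group. The within-group SD of Slc45a2 on day 3 was 0.10 on the log2 scale, smaller than that of all but 0.549% of the 10921 genes tested. On day 7 Dct and Mlana each had an SD of 0.11, and Gpnmb had the widest of the members at 0.24. The median over all genes was 0.28 on day 3 and 0.26 on day 7, and all 20 values of the members lay below the median of their day. Counting error is smaller for genes with many counts, and the members were not set against genes of similar level.

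The first question of the design is whether partial ablation altered these RNAs in what remained of the treated tumor 3 days later. Of the 10 members, 0 differed between histotripsy-treated and control CD45- cells by edgeR's quasi-likelihood test at a Benjamini-Hochberg adjusted p of 0.05, where 0.0916% of 10921 genes did. At an unadjusted p of 0.05 there were 2 members, Oca2 and Tyr, beside 10.6% of all genes, and DESeq2 also called 0, beside 0.421% of all genes. The 95% confidence intervals of all 10 members lay between a 0.644-fold and a 1.32-fold level.

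Among the enzymes, Tyr was 302, 241, 317 and 257 CPM in the 4 control tumors and 164 to 274 CPM in the 7 treated tumors (median 258). The treated tumors reached lower, with replicates 7 and 3 at 164 and 177 CPM, but the groups overlapped. Tyr had a log2 fold change of -0.26 (SE 0.12, adjusted p = 0.462).

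Dct was 23126, 25243, 21817 and 26625 CPM in control tumors and 15361 to 23895 CPM in treated tumors (median 21770). The same replicates 3 and 7 were the lowest of the treated group, and the highest treated tumors lay within the control range. Its log2 fold change was -0.22 (SE 0.12, adjusted p = 0.552). Tyrp1, the enzyme gene between them in level, had a log2 fold change of -0.01 (SE 0.10, adjusted p = 0.995).

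In those replicates 3 and 7 the members made up 2.80% and 3.25% of counts, the lowest shares among the CD45- libraries of day 3. Replicate 3 also had the highest fibroblast marker level among the CD45- libraries, 13338 CPM, whereas replicate 7 had 1074 CPM. The part of fibroblast RNA in the lower shares was not tested. Over the group, the share was 3.51% in treated tumors (median, range 2.80% to 3.99%), 3.90% in control tumors and 3.91% in abscopal tumors.

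The transporter gene Oca2, the least abundant member, was 38.9, 46.0, 51.3 and 41.2 CPM in control tumors and 23.2 to 47.8 CPM in treated tumors (median 38.0). The lower part of the treated range lay beneath all control tumors and the upper part inside their range. The log2 fold change was -0.33 (SE 0.15, adjusted p = 0.421). On the other side of 0, Mlana had a log2 fold change of 0.16 (SE 0.11, adjusted p = 0.696).

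The second question is whether the untreated tumor on the opposite flank differed from a control tumor on day 3. Of the members, 0 were called by edgeR, as were 0% of all 10921 genes, 1 member had an unadjusted p under 0.05 beside 5.19% of genes, and DESeq2 called 0, beside 0.11% of genes. The members' 95% intervals ran from a 0.664-fold to a 1.46-fold level.

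Sox10 was that member. It was 357, 323, 356 and 359.8 CPM in control tumors and 352 to 507 CPM in abscopal tumors (median 413). Most abscopal tumors lay above the control tumors, and the lowest lay among them. The log2 fold change was 0.28 (SE 0.11, adjusted p = 0.947).

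Gpnmb was 6079, 6453, 4671 and 4033 CPM in control tumors and 5199 to 7030 CPM in abscopal tumors (median 6340). The control tumors themselves were spread over most of the scale, so the groups overlapped. Its log2 fold change was 0.25 (SE 0.14, adjusted p = 0.9998), and that of Mitf was 0.22 (SE 0.13, adjusted p = 0.9998). Oca2 had -0.29 (SE 0.15, adjusted p = 0.995) in abscopal against control tumors, beside the value of -0.33 in treated tumors, and both comparisons used the same 4 control libraries.

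**Figure D2:**
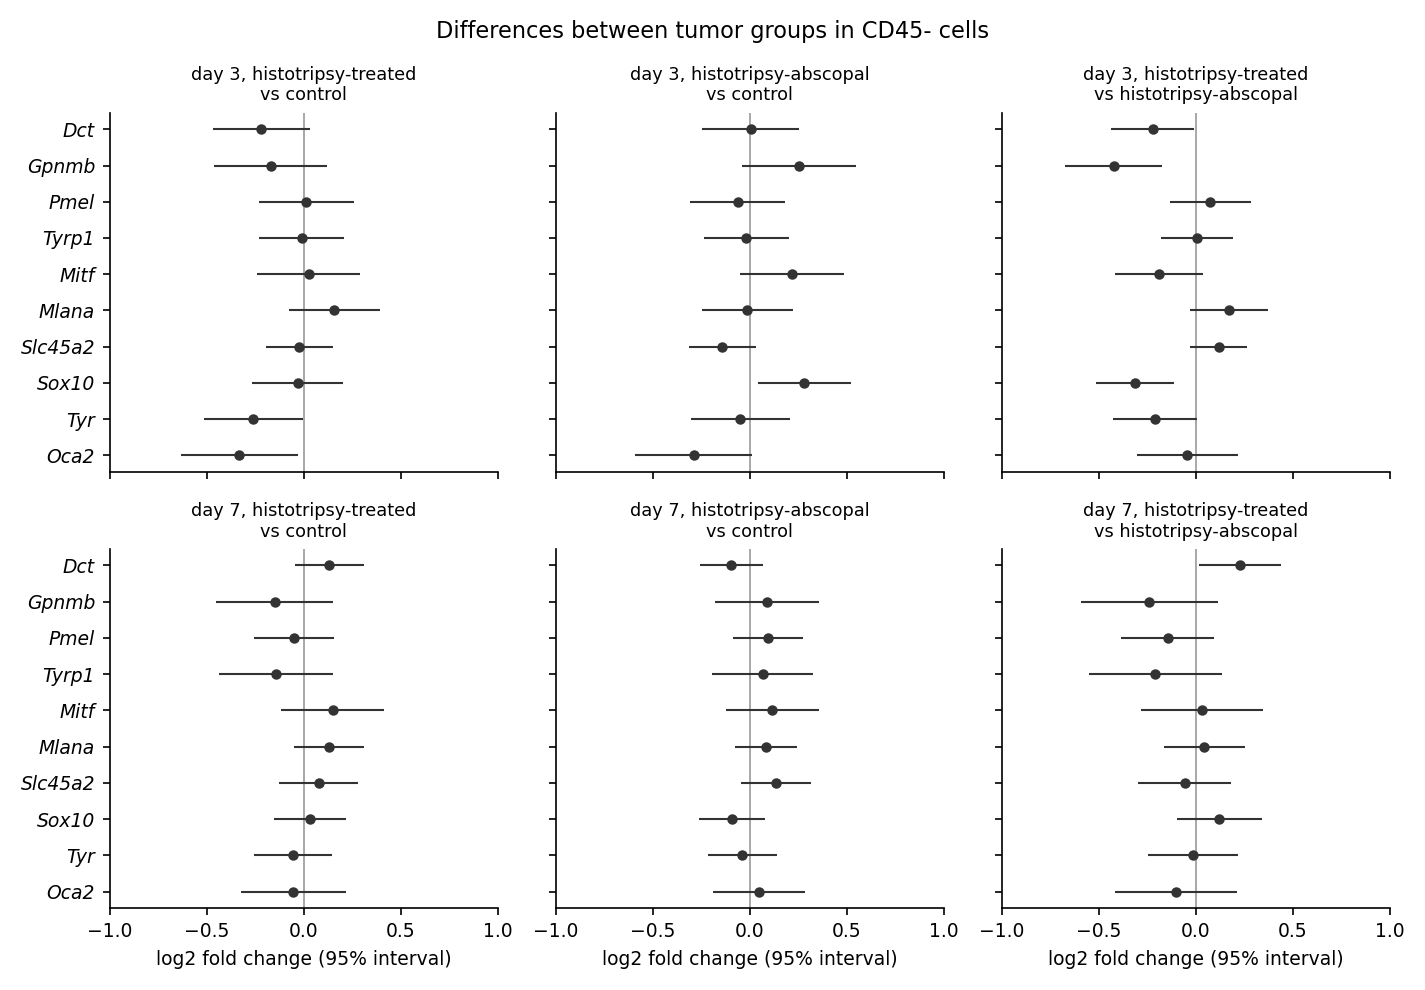
Log2 fold change of each member in CD45- cells with its 95% confidence interval from edgeR, for the 3 comparisons on day 3 and the 3 on day 7. The largest difference on day 3 is Gpnmb in treated against abscopal tumors at -0.42, and no member passed an adjusted p of 0.05 in any of the 6 comparisons.

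The widest contrast was between the ablated tumor and the untreated tumor of the opposite flank on day 3. Gpnmb was 3689 to 5812 CPM in the 7 treated tumors (median 4566) and 5199 to 7030 CPM in the 7 abscopal tumors (median 6340). The treated tumors had the lower range and overlapped with the abscopal tumors between 5199 and 5812 CPM, and the control tumors, at 4033 to 6453 CPM, spanned most of both ranges. The log2 fold change of Gpnmb was -0.42 (SE 0.12, 95% interval -0.67 to -0.17, unadjusted p = 0.00191 and adjusted p = 0.119 by edgeR's quasi-likelihood test).

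Sox10 was 251 to 412 CPM in treated tumors (median 369) and 352 to 507 CPM in abscopal tumors (median 413). Its log2 fold change was -0.31 (SE 0.10, 95% interval -0.51 to -0.11, unadjusted p = 0.00379 and adjusted p = 0.144 by edgeR's quasi-likelihood test). Dct, at 20050 to 28440 CPM in abscopal tumors (median 23954), had a log2 fold change of -0.22 (SE 0.10, adjusted p = 0.345) in treated against abscopal tumors. Tyr, at 228 to 288 CPM in abscopal tumors (median 273), had -0.21 (SE 0.10, adjusted p = 0.399), and Mlana had 0.17 (SE 0.10, adjusted p = 0.470). A regulator of the lineage, a melanosomal glycoprotein and 2 enzymes thus had lower means in treated than in abscopal tumors, and Mlana a higher one, none past the threshold in this fit.

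Of the members, 0 were called in this comparison, where edgeR called 0.147% of all genes, and 3 members had an unadjusted p under 0.05, as did 13.5% of all genes. DESeq2 called 1 member, Gpnmb (log2 fold change -0.43, adjusted p = 0.0351), where it called 1.26% of all genes. With the replicate number as a block, edgeR called Gpnmb and Sox10, both lower in treated tumors, where it called 1.07% of all genes. The control group was common to both other comparisons of day 3, so the values of the 3 comparisons are not independent.

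**Figure D3:**
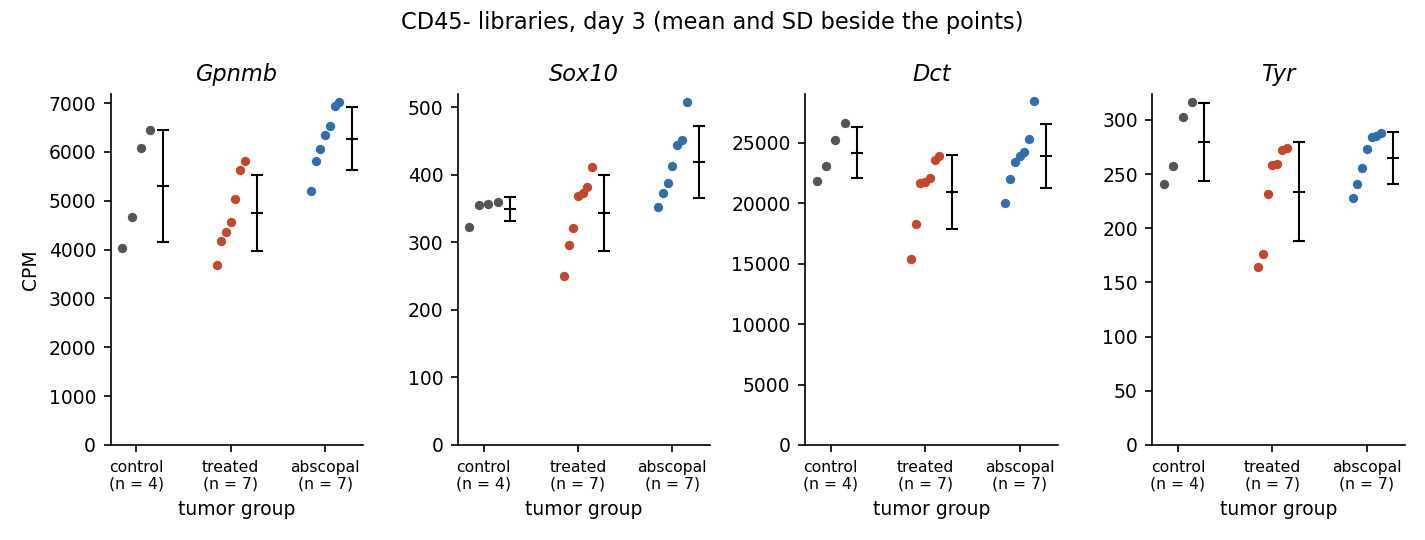
Level in CPM of Gpnmb, Sox10, Dct and Tyr in each CD45- library on day 3, with 1 point per library and the mean and SD of each group. Gpnmb has medians of 4566 CPM in treated and 6340 CPM in abscopal tumors, and the lowest Dct and Tyr points belong to treated replicates 3 and 7.

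On day 7 the first comparison was again that of treated with control tumors. In histotripsy-treated against control tumors, 0 members were called by edgeR, beside 0% of 10996 genes. At an unadjusted p under 0.05 there were 0, beside 6.07% of genes, and DESeq2 called 0, beside 0% of genes. The members' 95% intervals lay between a 0.732-fold and a 1.33-fold level, with 3 treated libraries.

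Dct was 25307, 24736 and 23742 CPM in the treated tumors and 20582 to 24809 CPM in the 11 control tumors (median 23407). Treated replicate 1 lay above every control tumor, and the others lay within the control range. The log2 fold change was 0.13 (SE 0.09, adjusted p = 0.922). Mitf, at 1966, 1532 and 1347 CPM in the treated tumors, differed more among them than the groups did, with a log2 fold change of 0.15 (SE 0.13, adjusted p = 0.942). Gpnmb, at 3657, 4399 and 4929 CPM, had -0.15 (SE 0.15, adjusted p = 0.954).

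In histotripsy-abscopal against control tumors on day 7, edgeR called 0 members and 0.291% of all genes. At an unadjusted p under 0.05 there were 0 members, beside 9.56% of genes, and DESeq2 called 0, beside 0.1% of genes. The members' 95% intervals lay between a 0.836-fold and a 1.28-fold level. The transporter gene Slc45a2 was 492, 525, 613 and 621 CPM in abscopal tumors and 383 to 579 CPM in control tumors (median 514). A pair of abscopal tumors lay above every control tumor and the other pair among them, and the log2 fold change was 0.14 (SE 0.09, adjusted p = 0.649). Dct had -0.10 (SE 0.08, adjusted p = 0.731).

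In treated against abscopal tumors on day 7, edgeR called 0 members and 0% of all genes, 1 member had an unadjusted p under 0.05 beside 6.74% of genes, and DESeq2 called 0 members and 0% of genes. That member was Dct. It was 22926, 19763, 24366 and 21231 CPM in the abscopal tumors, so 1 of them lay within the range of the treated tumors and the others beneath it. Dct had a log2 fold change of 0.23 (SE 0.10, adjusted p = 0.721), where on day 3 it had been -0.22. Gpnmb had -0.24 (SE 0.17, adjusted p = 0.807).

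Whether an effect differed between the days was tested in a joint fit of the 36 CD45- libraries, in which day and any sequencing run cannot be told apart. For the effect of ablation in treated tumors, edgeR called 0 members and 0% of 11548 genes, with 1 member and 6.02% of genes at an unadjusted p under 0.05. The difference of the effects on Dct was 0.35 on the log2 scale (SE 0.14, adjusted p = 0.661). For the effect in abscopal tumors, 0 members and 0.00866% of genes were called and 2 members had an unadjusted p under 0.05 beside 6.87% of genes, Sox10 with -0.38 (SE 0.14, adjusted p = 0.613) and Slc45a2 with 0.27 (SE 0.12, adjusted p = 0.680). DESeq2 called 0 members in both tests, beside 0.104% and 0.052% of genes.

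Control tumors alone, 4 on day 3 and 11 on day 7, gave 0 members called by edgeR beside 0% of genes. At an unadjusted p under 0.05 there were 0 members, beside 4.36% of genes, and DESeq2 called 0, beside 0.00866% of genes. The largest difference was that of Mitf, 0.20 higher on day 7 on the log2 scale (SE 0.12, adjusted p = 0.999). Gpnmb had -0.12 (SE 0.13, adjusted p = 0.999).

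The other genes of the lineage numbered 46, of which 1 was called in CD45- cells, on day 7. They were 12 regulators and receptors, 7 melanosome membrane and ion proteins, 20 genes of melanosome biogenesis and transport, and 7 genes known from dedifferentiated melanoma states. In treated against control tumors on day 3, 39 of them were tested, 0 were called by edgeR, and 11 had an unadjusted p under 0.05, where 10.6% of all genes did. The median log2 fold changes of the 4 lists were -0.21, -0.20, -0.03 and 0.76 in the order given, beside 0.01 for all genes. The fibroblast markers, with medians of 2057 CPM in treated and 188 CPM in control tumors, were also higher in this comparison, and their part in the value of the last list was not tested.

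Mc1r, the melanocortin receptor that drives pigment synthesis, had a log2 fold change of -0.31 in that comparison (adjusted p = 0.276) and Pax3, a regulator of Mitf, -0.19 (adjusted p = 0.657). The myosin Myo5a, which carries melanosomes along actin, had -0.15 (adjusted p = 0.678). Cd63, a tetraspanin that sorts Pmel, had -0.21 (adjusted p = 0.749). Jun, a transcription factor counted among the dedifferentiation genes and an immediate early gene, had the largest value of those named, 0.76 (adjusted p = 0.230).

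Trpm1, a cation channel of melanocytes and an Mitf target, was 449 to 471 CPM in the 4 control tumors, 258 to 459 CPM in treated tumors (median 348) and 293 to 389 CPM in abscopal tumors (median 349). All 7 abscopal tumors and 6 of the 7 treated tumors lay beneath the control tumors on day 3. The share of all genes that separate these groups in this way is not given. The log2 fold changes were -0.36 in treated tumors (adjusted p = 0.254) and -0.39 in abscopal tumors (adjusted p = 0.658), with 0.0916% and 0% of all genes called. On day 7 Trpm1 had medians of 452 CPM in control, 469 CPM in treated and 560 CPM in abscopal tumors.

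The gene called was Tnc, which encodes the matrix protein tenascin-C, in abscopal against control tumors of day 7, where 0.291% of all genes were called. It was 0 to 7.02 CPM in control tumors of day 7 (median 1.38) and 4.98 to 69.9 CPM in abscopal tumors (median 19.5), with a log2 fold change of 3.64 (adjusted p = 0.0278). The adjusted p was 0.709 without abscopal replicate 1, between 0.0502 and 0.0744 without abscopal replicate 2 or control replicate 3, 4, 8 or 11, and 0.0645 by DESeq2. Fibroblasts also make tenascin-C, and the fibroblast markers were at 70.1 to 2478 CPM in these abscopal tumors and 16.9 to 694 CPM in the control tumors. Their part in the Tnc result was not tested.

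The members did not vary as a block from tumor to tumor. After removal of group means, the 45 pairwise correlations over the 18 CD45- libraries of day 3 ranged from -0.551 to 0.713 (median 0.172, 29 positive), and those of day 7 from -0.745 to 0.814 (median -0.0817, 17 positive). These points share library, depth and scaling. Over all 36 libraries, Oca2 followed the mean of the other 9 members most closely (r = 0.529), then Tyr (0.409) and Dct (0.382), whereas Gpnmb (-0.186) and Mlana (-0.222) did not follow it.

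Mitf was set against each of the 9 other members on each day, as the transcription factor of the group, in 18 relations tested by 100000 permutations within groups. On day 7, Slc45a2 was lower in tumors with more Mitf (Pearson r = -0.745, permutation p = 0.00218, adjusted p = 0.0392, and Spearman rho = -0.752, permutation p = 0.00153, adjusted p = 0.0275, over 18 libraries). Without the 2 libraries farthest from the median of Mitf, r was -0.575. Scaling by library totals gave r = -0.525 with an adjusted p of 0.193, and the adjusted p exceeded 0.05 in 14 of the 18 cases in which a single library was left out, with r between -0.854 and -0.666. On day 3 the same pair had r = 0.49 (permutation p = 0.0934, adjusted p = 0.28, and rho = 0.521, permutation p = 0.0563, adjusted p = 0.203). The sign was thus opposite on the 2 days, and the difference between the days was not tested.

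Tyr had the largest relation to Mitf on day 3 (r = 0.713, permutation p = 0.011, adjusted p = 0.0993, and rho = 0.624, permutation p = 0.0196, adjusted p = 0.0881), with r = 0.488 without the 2 farthest libraries. On day 7, Dct had r = 0.579 (permutation p = 0.0216, adjusted p = 0.102, and rho = 0.612, permutation p = 0.0155, adjusted p = 0.0881) and r = 0.652 without the 2 farthest libraries. Tyrp1 had r = -0.539 on day 7 (permutation p = 0.0227, adjusted p = 0.102, and rho = -0.575, permutation p = 0.0177, adjusted p = 0.0881), with -0.333 without those libraries. In CD45- tumors of day 7, Mitf thus stood in opposite relations to 2 enzyme genes, neither past the adjusted threshold.

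Among 8198 other genes with at least 10 CPM on average, the one most like the mean of the members over the 36 CD45- libraries was Tspan10, a tetraspanin gene, with r = 0.733 and a mean of 428 CPM. It had r = 0.791 on day 3 and 0.523 on day 7. The next were Prkg1 (0.697), Slc5a3 (0.688), Ccdc91 (0.682), Il10rb (0.673), Sypl (0.671), Trpm1 (0.609), Hs3st1 (0.606), Dhx57 (0.603) and Ahr (0.602). The median over all genes compared was -0.006. Of these 10 genes, Tspan10, Prkg1, Hs3st1 and Trpm1 had medians of 1.08, 0.929, 2.01 and 4.41 CPM in CD45+ libraries, against means of 428, 46.0, 28.4 and 431 CPM in CD45- libraries. The medians of the other 6 in CD45+ libraries ran from 6.56 CPM in Ccdc91 to 154.0 CPM in Il10rb.

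RNA of the pigment genes was also counted in the sorted leukocytes. In the 34 CD45+ libraries the 10 members made up 0.0188% to 0.284% of counts (median 0.0366%). Expressed as a percentage of the mean CD45- level of the same group and day, the median was 0.527% for Dct, 0.451% for Tyrp1, 0.422% for Pmel, 0.591% for Mlana and 0.392% for Slc45a2, and that for Sox10 lay between those of Dct and Mlana. These 6 genes thus lay within a narrow band, although their own levels in CD45- cells differ widely. Slc45a2 and Sox10 each had a median of 3.5 counts and 17 of 34 libraries at or under 3 counts, so their place in it is uncertain. Tyr and Oca2, on fewer counts still, had medians of 0.199% and 0% and lay beneath the band.

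Gpnmb and Mitf stood above that band, with medians of 3.24% (range 1.39% to 8.37%) and 2.77% (range 1.58% to 8.31%) of their CD45- levels. Dct was counted 60 to 2927 times per CD45+ library and Gpnmb 90 to 996 times. Tyr had 0 counts in 14 of the 34 libraries and Oca2 in 26, and 28 and 32 libraries respectively were at or under 3 counts, so neither could be compared between groups at this depth.

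**Figure D4:**
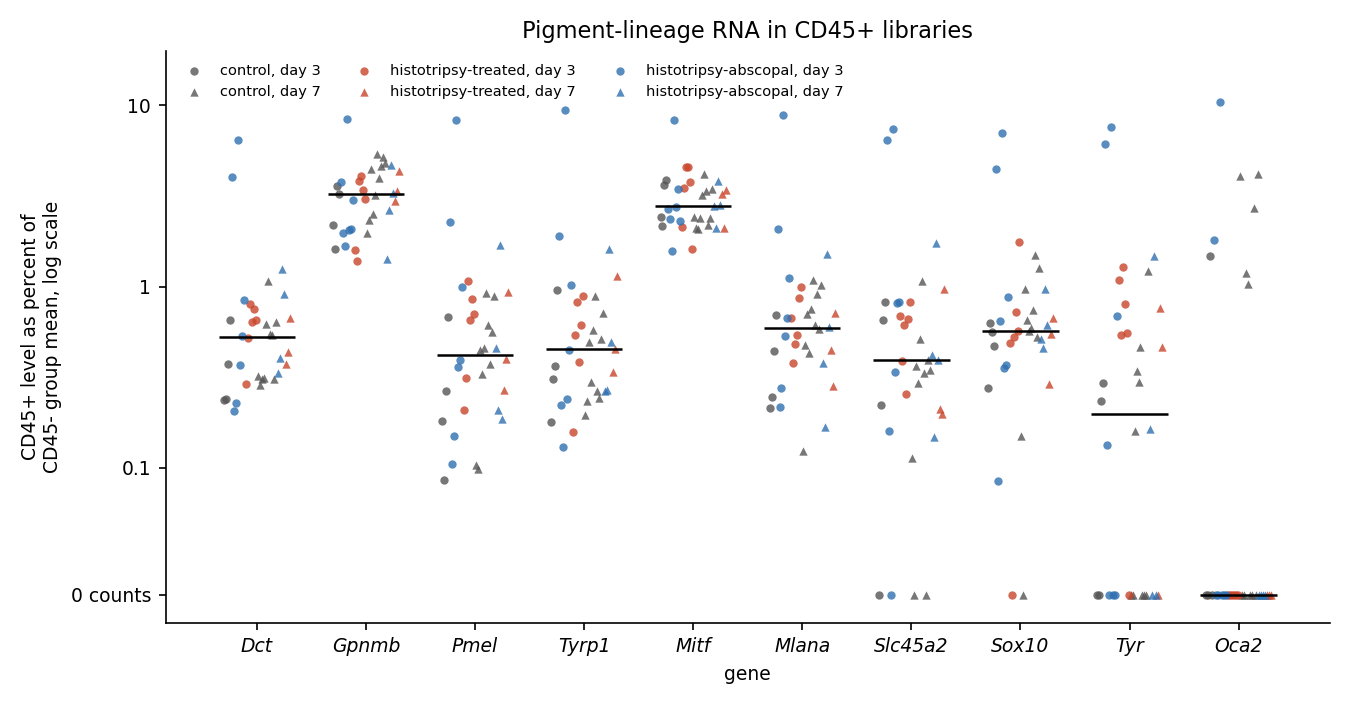
Level of each member in each of the 34 CD45+ libraries as a percentage of the mean CD45- level of the same group and day, on a log axis, with libraries at 0 counts drawn at the bottom and a bar at the median. Gpnmb and Mitf have medians of 3.24% and 2.77%, whereas Dct, Tyrp1, Pmel, Mlana, Slc45a2 and Sox10 have medians between 0.392% and 0.591%.

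For the summed counts of the 8 members other than Gpnmb and Mitf, histotripsy-abscopal replicate 4 of day 3 held 6.95% of the CD45- level (4153 counts) and replicate 1 held 3.68% (1791 counts). The next libraries were an abscopal tumor of day 7 with 1.36% and a control tumor of day 7 with 1.04%. Group medians lay between 0.302% in control tumors of day 3 and 0.659% in treated tumors of day 3. More of the lineage's RNA was therefore present in that pair of CD45+ libraries than in the other 32.

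The pair differed in its makeup. In replicate 4 the counts of Tyrp1 were 11.2% of the sum of Tyrp1 and Dct (exact 95% binomial interval 10.2% to 12.4%, counting error only), inside the range of 6.45% to 13.0% over the CD45- libraries of day 3. In replicate 1 they were 3.95% (3.04% to 5.05%), beneath that range. Pmel gave 13.9% (12.8% to 15.1%) in replicate 4 and 6.67% (5.49% to 8.01%) in replicate 1, where CD45- libraries ranged from 8.75% to 15.4%. Mlana gave 6.93% and 2.75%, with a CD45- range of 4.67% to 8.89%.

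Tyr, Slc45a2 and Sox10 did not follow these 3 in replicate 1. Tyr gave 1.66% (1.08% to 2.44%) in replicate 1 and 1.28% in replicate 4, with a CD45- range of 0.890% to 1.43%. Slc45a2 gave 2.88% (2.10% to 3.85%) and 2.07%, with a CD45- range of 1.44% to 2.69%. Sox10 gave 1.92% and 1.88%, with a CD45- range of 1.26% to 2.47%. Replicate 4 thus lay inside the CD45- range for these 6 genes, whereas replicate 1 lay beneath it for Tyrp1, Pmel and Mlana, inside it for Sox10, and above it for Tyr and Slc45a2 with intervals that reach into it. Oca2 gave 0.0674% in replicate 1 on 1 count and 0.239% in replicate 4 on 7 counts. Its CD45- range was 0.121% to 0.234%, and the intervals of both replicates reach into it.

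Gpnmb and Mitf, which macrophages also express, were each set against the summed counts of the other 8 members in the same library. The source of their RNA in CD45+ libraries was not tested. The ratios draw on the same counts as the percentages above, so they restate that difference and are no separate support for it. In control tumors of day 3 the median ratio of Gpnmb was 1.35 in CD45+ and 0.174 in CD45- cells, and that of Mitf 0.391 and 0.0417. Both ratios were higher in CD45+ cells in all 6 pairs of groups, and the libraries of the fractions did not overlap in 5 of 6 pairs for each gene. The share of all genes that would separate the fractions in this way is not given.

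The permutation tests took CD45+ and CD45- libraries as unpaired, although both fractions may come from the same tumors. For Gpnmb the ratio was 7.64-fold higher in control tumors of day 3 (exact permutation p = 0.0286, adjusted p = 0.0343, 4 against 4 libraries). It was 4.60-fold higher in treated tumors of day 3 (exact permutation p = 0.00117, adjusted p = 0.0035) and 3.58-fold higher in abscopal tumors of day 3 (exact permutation p = 0.00466, adjusted p = 0.0112), where the fractions overlapped. On day 7 it was 8.10-fold higher in control tumors (permutation p = 2e-05, adjusted p = 0.00012) and 4.69-fold higher in abscopal tumors (exact permutation p = 0.0286, adjusted p = 0.0343). With 3 against 3 libraries, treated tumors of day 7 gave 7.33-fold at the smallest exact permutation p that such numbers allow, 0.1.

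For Mitf the ratio was 8.78-fold, 5.51-fold and 3.76-fold higher in CD45+ cells of control, treated and abscopal tumors on day 3, with adjusted exact permutation p of 0.0343, 0.0035 and 0.0291. On day 7 the folds were 5.99, 6.02 and 4.80 in the same order, with adjusted permutation p of 0.00012, 0.1 and 0.0343. All p-values are two-sided and adjusted over the 12 tests. With each library left out in turn, the differences over the 6 groups stayed between 1.59 and 3.15 for Gpnmb and between 1.63 and 3.34 for Mitf on the log2 scale. Where 4 libraries faced 4, no exact permutation p below 0.0571 was then possible.

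**Figure D5:**
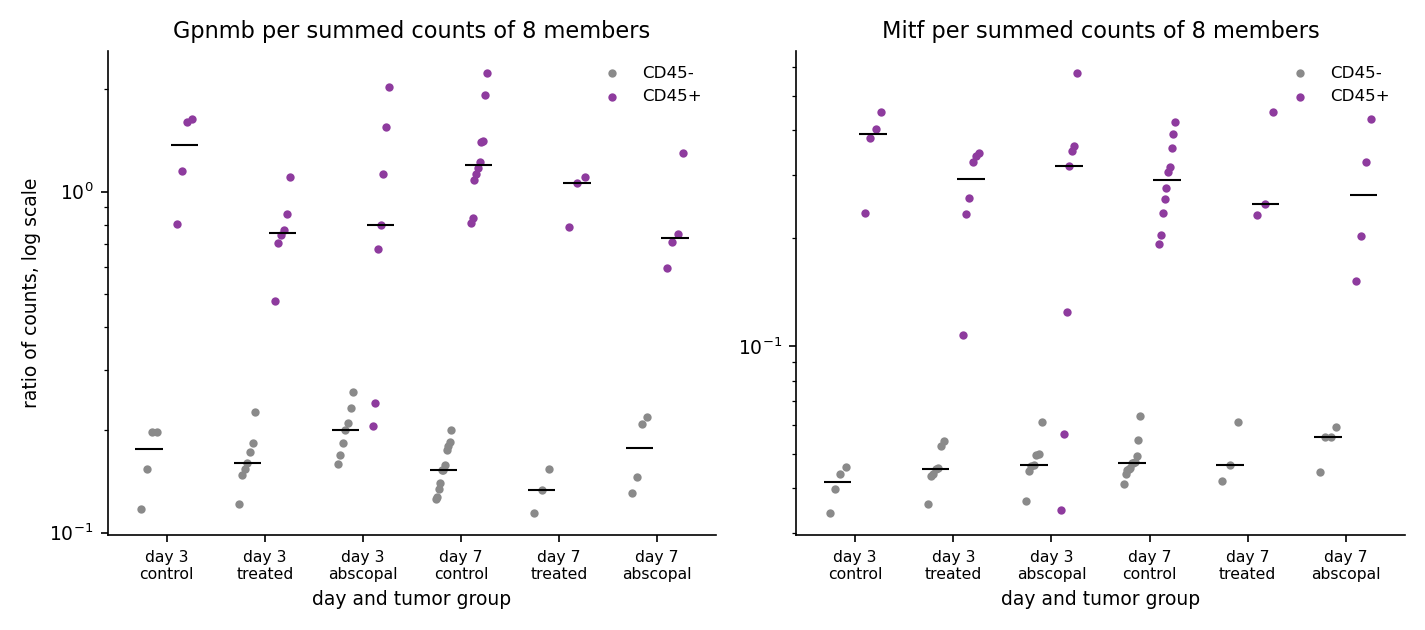
Counts of Gpnmb and of Mitf divided by the summed counts of the other 8 members in each library, in CD45- and CD45+ cells of each group and day, with a bar at the median. The medians of CD45+ libraries lie above those of CD45- libraries in all 6 groups, and the fractions overlap in histotripsy-abscopal tumors of day 3.

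The median ratio of Gpnmb lay between 0.731 and 1.35 over the 6 groups of CD45+ libraries and between 0.133 and 0.200 over those of CD45- libraries. Within the members' counts of CD45+ libraries on day 3, Gpnmb took 16.5% to 56.2% (median 39.3%) and Dct 22.3% to 66.8% (median 35.2%). Gpnmb was thus the largest of the 10 by median in CD45+ cells, where Dct was in CD45- cells.

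In the comparisons of CD45+ cells between groups, 6 of the 10 members passed the filter on low counts, namely Tyrp1, Dct, Pmel, Mlana, Mitf and Gpnmb. In treated against control tumors on day 3, edgeR called 0 of these 6 beside 7.8% of 10264 genes. At an unadjusted p under 0.05 there were 0, beside 23.9% of genes, and DESeq2 called 0 beside 10.4% of genes. Without the filter on low counts edgeR called 2 members, Pmel and Dct, beside 4.13% of genes. Dct was counted 60, 106, 138 and 386 times in control tumors and 72 to 280 times in treated tumors (median 208.5). The log2 fold change of Dct was 0.73 (SE 0.77, adjusted p = 0.606), and that of Pmel was 1.25 (SE 0.99, adjusted p = 0.478).

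In abscopal against control tumors on day 3, edgeR called 0 of 6 members and 0% of all genes, 4 members had an unadjusted p under 0.05 beside 7.76% of genes, and DESeq2 called 0 beside 0.0487% of genes. Without the filter on low counts edgeR called 7 of the 10 members, beside 0.508% of genes. The 4 were Dct with a log2 fold change of 2.34 (SE 0.79, adjusted p = 0.554), Pmel with 2.47 (SE 0.94, adjusted p = 0.565), Mlana with 2.24 (SE 0.81, adjusted p = 0.560) and Tyrp1 with 2.01 (SE 0.90, adjusted p = 0.620). Gpnmb had 0.64 (SE 0.40, adjusted p = 0.705) and Mitf 0.43 (SE 0.37, adjusted p = 0.781).

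Dct counts in the 7 abscopal libraries ran from 60 to 2927 (median 248), so the highest library lay far from the middle of its group. Without replicates 1 and 4, a choice made after seeing the data, the log2 fold change of Dct was 0.28, that of Pmel 0.34, of Mlana 0.47, of Tyrp1 -0.16, of Gpnmb 0.03 and of Mitf 0.01. The higher means of the abscopal group thus rested on that pair of libraries. In treated against abscopal tumors, 0 of 6 members and 5.44% of genes were called, 1 member had an unadjusted p under 0.05 beside 18.7% of genes, and DESeq2 called 0 beside 7.01% of genes. Without the filter edgeR called 6 of the 10, beside 3.4% of genes. At an unadjusted p under 0.05 stood Dct, with a log2 fold change of -1.61 (SE 0.66, adjusted p = 0.176), which was 0.45 without replicates 1 and 4.

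On day 7, edgeR called 0 of the 6 members in each of the 3 CD45+ comparisons, beside 0% of 10817 genes, and DESeq2 called 0, beside 0% of genes. At an unadjusted p under 0.05 there were 0 members in each. The shares of all genes were 3.18% in treated against control, 7.40% in abscopal against control and 2.68% in treated against abscopal tumors. Log2 fold changes lay between -0.32 and 0.32 in treated against control tumors, between -0.21 and 0.61 in abscopal against control tumors, and between -0.51 and -0.03 in treated against abscopal tumors.

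Of the 46 other lineage genes, 32 were tested in CD45+ cells on day 3, and 4 were called in treated against control tumors, all higher, beside 7.8% of all genes. They were Egfr, a growth factor receptor (log2 fold change 4.24, adjusted p = 0.000869), Lyst, which shapes lysosomes and related organelles (1.07, adjusted p = 0.00874), Rab32, a small GTPase of melanosome transport (1.26, adjusted p = 0.0376), and Atp7a, a copper transporter (0.59, adjusted p = 0.0499). Egfr was 0 to 1.9 CPM in these control tumors (median 0.55) and 5.19 to 18.2 CPM in treated tumors (median 10.9). Its fold change thus rests on control levels near the floor. Lyst, Rab32 and Atp7a had medians of 185, 79.7 and 92.8 CPM in CD45+ libraries, beside means of 86.4, 36.2 and 168 CPM in CD45- libraries. When a library was left out, Egfr and Lyst stayed called in 17 of 17 cases, Rab32 in 9 and Atp7a in 4, with adjusted p of up to 0.116 and 0.149. In treated against abscopal tumors the 4 called were Egfr (2.15, adjusted p = 0.00167), Rab32 (1.24, adjusted p = 0.0173), Atp7a (0.57, adjusted p = 0.0312) and Cd63 (1.19, adjusted p = 0.0469), beside 5.44% of all genes. When a library was left out, these stayed called in 17, 16, 10 and 7 of 17 cases, with adjusted p of up to 0.0643 for Rab32, 0.112 for Atp7a and 0.199 for Cd63. Neutrophil markers summed to 1271 to 26467 CPM in these treated tumors and 350 to 2667 CPM in control tumors, and their part in these results was not tested.

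The members lie on 7 chromosomes of GRCm38. Tyr (chr7:87424771-87493512) and Oca2 (chr7:56239760-56536518) share chromosome 7, Mitf (chr6:97807052-98021349) and Gpnmb (chr6:49036546-49070929) chromosome 6, and Slc45a2 (chr15:11000721-11029233) and Sox10 (chr15:79154908-79165240) chromosome 15. Tyrp1 is at chr4:80834123-80851719, Dct at chr14:118012790-118052244, Pmel at chr10:128704195-128720238 and Mlana at chr19:29697824-29708634. Pmel overlaps Cdk2 and Dgka on the opposite strand, and the strand setting of the counting is not given in the sources used here. Cdk2 had 11.5% and 11.2% as many counts as Pmel in CD45- cells on days 3 and 7, but 55.9% and 104.7% in CD45+ cells, so the Pmel counts of CD45+ cells are the less certain ones.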

How the data were processed

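RNA of flow-sorted CD45- and CD45+ cells was measured by QuantSeq, which reads the 3′ end of transcripts, in 70 libraries grouped by the sample labels. The authors trimmed reads with Trim Galore 0.5.0, aligned them with STAR 2.6.0 (GRCm38), merged reads sharing a molecular identifier by a Lexogen program and counted the rest with featureCounts, and the deposited values are raw counts per gene, in a table per fraction and day. Identifiers can carry errors, which can shift high counts. Depth was 887798 to 3820705 counts per library, and intervals on counts cover counting error only. An unnamed line of column totals in both CD45+ tables was left out. No 2 libraries of a group agreed within sampling noise (smallest chi-square per degree of freedom 1.99 over 208 pairs).

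Counts were tested with edgeR 4.0.16 in R 4.3.3 (TMM scaling, filterByExpr with a minimum count of 10 and a minimum total of 15, quasi-likelihood test, Benjamini-Hochberg adjustment over all genes tested, threshold 0.05) in a fit of the 3 groups of a table. CPM values use library totals. Differences between days used a joint fit of the CD45- tables. Ratios were compared, with a pseudocount of 0.5, by two-sided permutation tests, exact under 10 libraries a group and with 100000 resamples otherwise, and correlations were taken on log2 CPM (prior count 2) after removal of group means with scipy 1.17.1 and numpy 2.4.6. The scripts were tested on simulated data. Alternatives were DESeq2 1.42.0, library totals, no filter on low counts, each library left out, the replicate number as a block, other pseudocounts and, added after seeing the data, leaving out both high CD45+ libraries.

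The members, the 4 lists of other lineage genes and the tests were chosen with earlier results of these data known. Named are the 10 members, genes of those lists that were called or had the highest CD45- level (up to 3 a list), and the 10 genes most like the members' mean. Ptprc, Adgre1 and Krt14 are named as markers and Cdk2 and Dgka for their overlap. Replicates with the same number were not taken as paired.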

Additional observations from a re-analysis of the deposited data

Results flagged for a closer look

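In 15 of 86 sets of libraries, a set being the libraries of a group for a member, the highest or lowest library lay far from the others by Dixon's test at its 95% critical value, where chance gives about 1 set in 20. Of these, 6 belong to CD45+ histotripsy-abscopal replicate 4 of day 3, which was the highest for Tyrp1 (195.6 CPM, next library 39.5), Pmel (250 CPM, next 68.6), Mlana (115 CPM, next 27.2), Mitf (123.9 CPM, next 51.7), Gpnmb (525.2 CPM, next 237.4) and Oca2 (3.69 CPM, next 0.647). Its Oca2 level rests on 7 counts.

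Among CD45+ libraries of day 7, abscopal replicate 3 was the highest of 4 for Tyrp1 (40.1 CPM, next 12.3), Slc45a2 (9.84 CPM, next 2.35) and Tyr (4.22 CPM, next 0.47). Control replicate 6 was the highest of 10 for Dct (248.9 CPM, next 147.5) and Slc45a2 (5.38 CPM, next 2.58), and control replicate 10 for Tyr (3.49 CPM, next 1.35). The Tyr levels rest on few counts.

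In CD45- cells of day 3, abscopal replicate 4 had the highest Mlana level (1721 CPM, next 1338). Control replicate 2 had the lowest levels of Mitf (1114 CPM, next 1354) and of Sox10 (323 CPM, next 356) among the 4 control tumors. The causes of these values were not tested.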

How the results depend on the processing

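The count of members called moved under few settings. In CD45- cells of day 3, treated against abscopal tumors, it was 1 with DESeq2 in place of 0. In CD45+ cells of day 3 without the filter on low counts it was 2 in treated against control, 7 in abscopal against control and 6 in treated against abscopal tumors, where 4.13%, 0.508% and 3.4% of all genes were called, in place of 0 each, and the cause was not tested. Of the relations of Mitf to other members on day 7, 0 were called with library totals in place of 1, and 0 to 1 with each library left out, as on day 3, where 0 were called otherwise and 1 without abscopal replicate 6. The count of groups with a higher ratio in CD45+ cells ranged from 4 to 5 for Gpnmb and for Mitf with each library left out, where only the smaller number of possible permutations ended the call. Among the differences named in the text, some turned their sign. Tyrp1 in treated against control CD45- cells of day 3 was 0.012 without the filter and -0.072 to 0.038 with each library left out, and Mitf in treated against control CD45- cells of day 7 was -0.042 to 0.28 with each library left out. Without both high abscopal libraries, in CD45+ cells of day 3, Tyrp1 was -0.16 in abscopal against control and Dct 0.45 in treated against abscopal tumors. Jun in treated against control CD45- cells of day 3 was called without the filter (0.78), and Atp7a in CD45+ cells of day 3 was not called with library totals in either comparison (0.35 and 0.43), nor were Rab32 against control (0.95) and Cd63 against abscopal tumors. Of 90 differences of members in no sentence, 54 changed sign under at least 1 setting, from values of up to 1.55 in size to values of up to 0.919.

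The labels give replicate numbers but do not say whether these pair the libraries. Correlated deviations were used as a check, which cannot show that no libraries were paired. Of 49 same-numbered pairs, 20 had correlated deviations above 0.1, and 14 libraries correlated best with their own number. For treated and abscopal CD45- tumors of day 3 these were 4 and 4 of 7, with a median r of 0.166. A pairing was to be used in the main fit only where every pair exceeded 0.1. With the replicate number as a block, 2 members were called in CD45- cells of day 3 in treated against abscopal tumors, Gpnmb (-0.44, adjusted p = 0.0444 by edgeR) and Sox10 (-0.32, adjusted p = 0.0492 by edgeR). Mitf in treated against control CD45- cells of day 7 was then -0.0022, Tnc was not called (3.61), Jun was called (0.76), Atp7a was not called in treated against abscopal CD45+ cells (0.52), and no other call named in the text changed. Depth limits Tyr, Oca2, Slc45a2 and Sox10 in CD45+ cells, where many libraries hold 3 counts or fewer.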
